A study of Drosophila melanogaster with 53 samples.

Results

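The levels of 15596 genes in Drosophila melanogaster S2 cells treated with DMSO were read from the column that holds the solvent control of the study. They are the genes with status OK in that column, of 15598 genes in the table. The study examined the cofactor NELF (negative elongation factor, which holds RNA polymerase II paused near promoters) in the response to 20-hydroxyecdysone (20E), the insect steroid hormone, and its 53 samples are mostly chromatin immunoprecipitations. The DMSO column stands for 2 polyA RNA libraries of cells that received no dsRNA and were given DMSO, the solvent of 20E, for 1 h. The cells were the modENCODE stock of Schneider line 2 grown in Schneider's medium with fetal serum. Each gene has 1 value in FPKM (fragments counted per unit of transcript length and of mapped fragments), with a lower and an upper confidence bound given by the authors, and the values of the separate libraries were not analysed here. No SD or p-value therefore stands beside a value, and the bounds are the only error given. The paper's text says that these RNA data came from an earlier study.

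S2 cells were derived from late Drosophila embryos and are used as a model of the macrophage-like blood cell, the plasmatocyte. Fly blood cells (hemocytes) arise under the GATA factor Serpent. Plasmatocytes engulf microbes and dying cells and lay down basement membrane. Crystal cells carry the prophenoloxidases of melanization, and lamellocytes encapsulate parasites. A line grown in culture also divides and makes ribosomes without pause, and has lost the tissue context in which most developmental regulators are used.

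The most abundant mRNAs were those of the cytosolic ribosome. The sequences at their transcription starts are shown because a start of a special kind is common in this family. Ribosomal protein genes of animals often begin in a run of pyrimidines, the TCT element, in place of the initiator of other genes. Genes of the right arm of chromosome 2, among them RpL39, RpL41 and RpL29, are not shown here. The 5 ribosomal protein genes highest by FPKM on the other arms follow, with Act5C, the highest gene that encodes no ribosomal protein, as a contrast. Each stretch holds 30 bases, 5′ to 3′ on the strand of the gene, and the annotated start of the gene's most abundant listed transcript is base 21. Capitals mark each CTTT, the shared core of the TCT letters. The coordinates and starts are those of the BDGP6 (dm6) annotation and the bases those of the RefSeq genome of that release.
RpL35, chrX:5672714-5672743, plus strand: gcacctctgcttcttcttCTTTcCTTTtct
RpL5, chr2L:22536641-22536670, minus strand: ccaataaggccgcactattttccttCTTTt
RpL27, chr3R:25685042-25685071, minus strand: tttgccatctctaaaatctccccttCTTTt
RpS30, chr3R:20850814-20850843, plus strand: tatcttcactaataaatgcatgcggcatgg
RpL28, chr3L:3222951-3222980, minus strand: cgcgctatgtcgggctgccatatttCTTTc
Act5C, chrX:5900841-5900870, plus strand: aaacgggctgcgggaccagttttcatatca
A CTTT stood within these 30 bases in 4 of the 5 ribosomal genes, and not in RpS30 or Act5C. With its first base within 10 bases of the start, CTTT stood in 72.8% of 92 cytosolic ribosomal protein promoters and in 11.5% of all promoters. It also stood in 31.0% of the 42 promoters of other genes at or above 1000 FPKM. The longer TCT letters, CTTTTT or CTTTTC, stood in 43.5% of the 92. The core CTTT was chosen after the data had been seen.

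Levels spread over a wide range, and a few genes held most of the summed FPKM. Of the 15596 genes, 7616 (48.8%) were at or above 1 FPKM, 4473 (28.7%) were listed at 0, and 3507 (22.5%) lay between. The median over all genes was 0.753 FPKM, and over genes at or above 1 FPKM it was 27.1 FPKM. The class from 10 to 100 FPKM was the largest class above 0, with 4723 genes (30.3%). The 124 genes at or above 1000 FPKM held 50.0% of the summed FPKM, and the 1051 genes from 100 to 1000 FPKM a further 28.4%. The highest class also had short transcripts, with a median of 739.5 bases in the BDGP6 annotation against 1988 bases in the class from 10 to 100 FPKM. The bounds widened towards low values: the median distance from the value up to its upper bound was 22.8% of the value in the highest class, 37.8% in the class from 1 to 10 FPKM and 136% in the class from 0.1 to 1 FPKM. Of the 1683 genes in the last class, 1164 had a lower bound of 0.

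**Figure D1:**
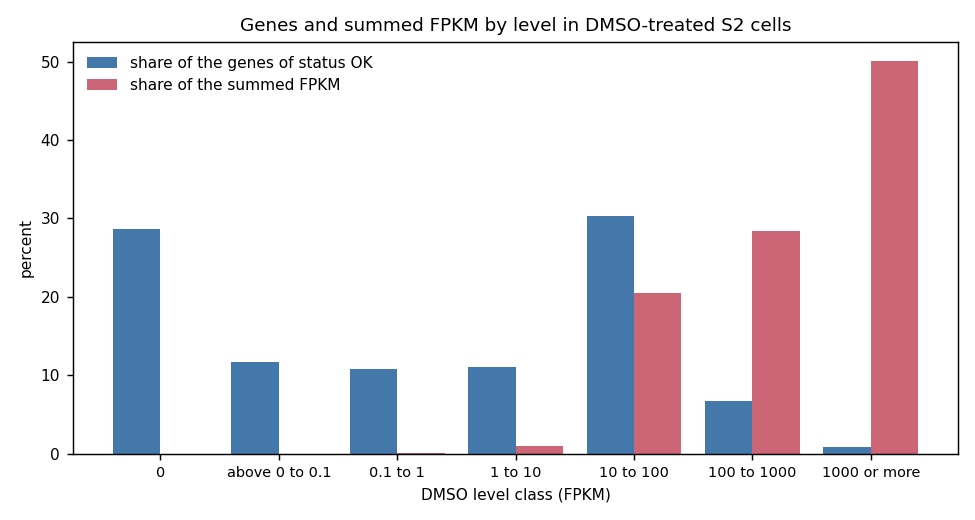
Share of the 15596 genes (blue bars) and of the summed FPKM (red bars) in 7 classes of DMSO level, in percent. The 124 genes at or above 1000 FPKM are 0.795% of the genes and hold 50.0% of the summed FPKM.

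The steps between the lowest values give an estimate of how far down the column reads. Among 561 genes with 1 transcript of 1000 to 6000 bases and a value under 0.05 FPKM, 90.6% of values were whole multiples of 1 fragment within 0.15 of a step once 200 bases were taken off the transcript length. At 1 fixed setting 30% would be by chance. The scale and the bases taken off were searched for a high share, so 30% is not the chance level of the search. The scales searched were also capped, and which step is called 1 fragment rests on that cap. On the fitted scale 1 fragment on a transcript of 2000 bases is 0.00670 FPKM, and 1 FPKM is 149 fragments. A value of 0.02 FPKM on such a transcript is thus about 3 fragments. This is the scale of the pooled column and not the depth of a library. A listed 0 does not show that an mRNA was absent: Ef1alpha48D, which encodes the main translation elongation factor 1 alpha, is 1 of the 2 genes left out and is listed at 0 because the authors' program had too many data at its locus. Another limit is the shared locus, since 6462 genes (41.4%) were listed at the same locus as another gene. Fragments there have to be divided between overlapping genes, and the bounds of the lesser gene could be wide. Fer2LCH, the ferritin light chain, was listed at 3.19 FPKM with bounds 0 and 11.3, and Fer1HCH, the heavy chain at the same locus, at 417 FPKM.

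The libraries were of polyA RNA, and the kinds of genes differed in level. By the biotypes of the BDGP6 annotation, 7141 of 13217 protein-coding genes (54.0%) were at or above 1 FPKM, against 119 of 796 noncoding RNA genes (14.9%), 16 of 210 pseudogenes (7.62%), 1 of 309 tRNA genes, and none of 100 rRNA, 31 snRNA and 257 snoRNA genes. The parts of polyA selection, transcript length and repeats in these low shares were not tested. By arm, the share of genes at or above 1 FPKM was 55.3% on X and 65.6% on the small chromosome 4. On arms 2L, 2R, 3L and 3R it was between 44.6% and 50.8%. The median over genes at or above 1 FPKM was 21.6 FPKM on X and from 26.1 to 30.5 FPKM on these 4 arms.

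Of the 25 highest genes, 22 encode cytosolic ribosomal proteins. RpL39 was highest at 27188 FPKM (bounds 20866 and 33509), followed by RpL41 at 18565 FPKM (bounds 14165 and 22966), RpL35 at 14572 FPKM (bounds 10718 and 18427) and RpL29 at 8523 FPKM (bounds 6563 and 10484). Between RpL35 and RpL29 neighbouring bounds did not overlap, and between all other neighbours in this order of 25 they did. The bounds of RpL39 also lay clear of those of RpL35, and the bounds of RpL29 clear of those of RpS3, the last of the 25. RpL39, RpL41 and RpL29 are short mRNAs of 288, 320.0 and 304 bases, and the 25 highest had a median length of 601 bases. The fit to longer transcripts described above took 200 bases off the length, which would be a large part of such mRNAs. How far a length correction raised the values and ranks of the shortest mRNAs was not tested, and the bounds need not cover it. The other 3 were Act5C, a cytoplasmic actin, at 6439 FPKM (bounds 4446 and 8432), twinstar (tsr), the actin-severing cofilin, at 6244 FPKM (bounds 4660.4 and 7828), and eIF-5A, a translation factor, at 5251 FPKM (bounds 3990.5 and 6512). The 25 together held 22.8% of the summed FPKM.

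**Figure D2:**
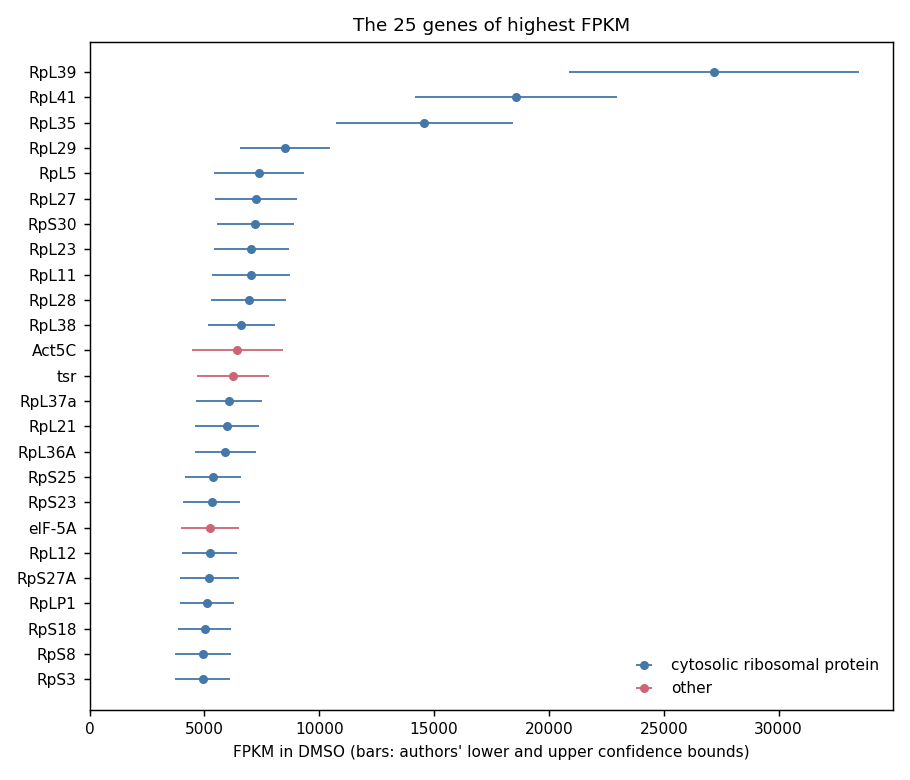
FPKM of the 25 highest genes in the DMSO column, with both confidence bounds drawn as bars, cytosolic ribosomal proteins in blue and other genes in red. RpL39, RpL41 and RpL35 stand above the rest, and the bounds of the 22 genes from RpL29 down overlap from each gene to the next.

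Below them, the highest genes outside the family of symbols RpL, RpS and RpLP were read after the levels had been seen. Tctp, the translationally controlled tumor protein, was at 3006 FPKM (bounds 2304 and 3707), the mitochondrially encoded mt:ATPase6 at 2986 FPKM and Cp1, a lysosomal cysteine proteinase, at 2948 FPKM. Ef2b, translation elongation factor 2, was at 2873 FPKM and Df31, a chromatin decondensation factor, at 2498 FPKM. Among the genes that followed were the translation factors Ef1gamma at 2461 FPKM and Ef1beta at 1807 FPKM, betaTub56D at 2059 FPKM, alphaTub84B at 1877 FPKM, awd (nucleoside diphosphate kinase) at 1706 FPKM and sesB (the ADP/ATP carrier) at 1546 FPKM. The chaperone Hsc70-4 was at 1522 FPKM.

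Cytosolic ribosomal protein genes, taken by the symbols RpL, RpS and RpLP, held 40.0% of the summed FPKM. Of the 92, 86 were at or above 1 FPKM, and the median was 3224 FPKM. At or above 1000 FPKM there were 77 of them, from 1297 to 27188 FPKM. The members under 1 FPKM were mostly paralogs with a letter or a suffix: RpS28a at 0.895 FPKM, RpS5b at 0.690 FPKM, RpL22-like at 0.123 FPKM, and RpL37b, RpL10Aa and RpS28-like listed at 0. RpS6, whose symbol has no such letter or suffix, was listed at only 1.90 FPKM (bounds 0.917 and 2.88). The genes CR33222 and snoRNA:Or-aca2 lie in the RpS6 locus, and both were listed at 0. How fragments were counted there was not tested, so the low value need not be the level of the RpS6 mRNA. Every one of the 73 mitochondrial ribosomal protein genes was at or above 1 FPKM, at a median of 61.7 FPKM and from 15.7 to 238 FPKM.

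Other housekeeping lists varied in how many members were at or above 1 FPKM, against 48.8% of all genes. All 8 subunits of the chaperonin TRiC, which folds actin and tubulin, lay between 258 and 371 FPKM, and the bounds of each subunit overlapped those of the next. The 32 proteasome genes without an R or T suffix were all at or above 1 FPKM, from 81.8 to 332 FPKM. Of the 16 suffixed proteasome paralogs 3 were, namely CG30382 (Prosalpha1R), a close copy of Prosalpha1, at 234 FPKM, Rpt6R at 34.1 FPKM and Rpt3R at 24.9 FPKM. Prosalpha1 itself was at 235 FPKM, and how fragments were divided between these 2 copies is uncertain. All 32 aminoacyl-tRNA synthetases were at or above 1 FPKM. The 14 mitochondrial ones had a median of 13.9 FPKM and the other 18 a median of 99.3 FPKM. All 12 glycolysis genes were at or above 1 FPKM, from Pfk (phosphofructokinase) at 14.2 FPKM (bounds 10.9 and 17.5) to Gapdh1 at 439 FPKM (bounds 329 and 550.2). All 28 replication and cell cycle genes were at or above 1 FPKM, led by mus209, which encodes the sliding clamp PCNA, at 395 FPKM (bounds 311 and 479). Geminin, the inhibitor of origin licensing, was at 201 FPKM and the mitotic kinase polo at 183 FPKM. The median of the 28 was 46.7 FPKM. The lowest was twe, a Cdc25 phosphatase of meiosis, at 4.72 FPKM (bounds 0.650 and 8.80). Other lists were less full. Of 46 translation initiation factor genes 38 were at or above 1 FPKM, of 15 ATP synthase genes 12, and of 34 vacuolar ATPase genes 20, with 6 listed at 0 and Vha16-1, a subunit of the proton channel, highest at 695 FPKM.

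Within some families 1 or a few members carried nearly all of the level. Act5C and Act42A (1508 FPKM, bounds 1148 and 1867) were the only actins at or above 1 FPKM, while the muscle actins Act57B, Act87E, Act79B and Act88F lay between 0.0263 and 0.568 FPKM. Of the 10 tubulins, 7 were at or above 1 FPKM. The testis betaTub85D at 0.0587 FPKM and the maternal alphaTub67C at 0.0425 FPKM were not. The 111 replication-dependent histone genes, whose mRNAs end without a polyA tail, were all under 1 FPKM, 16 of them at 0, with a highest value of 0.282 FPKM. The 5 histone variant genes, whose mRNAs carry a tail, were all at or above 1 FPKM: His4r at 1529 FPKM, His3.3B at 604 FPKM, His2Av at 559.9 FPKM, His3.3A at 425 FPKM, and cid, the centromeric histone H3, at 18.4 FPKM. The replication-dependent genes are also near-identical repeats, and the selection of polyA RNA and the counting of repeats cannot be told apart here.

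The regulators of blood cells formed a high and a low set, while the markers of the cell types covered the range between. Among 9 hemocyte regulators, srp (Serpent) was at 106 FPKM (bounds 83.2 and 129), zfh1 at 71.9 FPKM (bounds 56.4 and 87.4), ush (the Friend of GATA cofactor U-shaped) at 66.9 FPKM (bounds 49.7 and 84.0) and the forkhead factor jumu at 49.0 FPKM (bounds 38.5 and 59.5). No other regulator reached 0.1 FPKM. These were peb (Hindsight) at 0.0365 FPKM, kn (Collier, required for lamellocytes), lz (Lozenge, the Runx factor of crystal cells) and gcm2, all with a lower bound of 0, and gcm, listed at 0. Gcm and Gcm2 promote plasmatocyte fate in the embryo.

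Of 16 plasmatocyte genes, 13 (81.2%) were at or above 1 FPKM, 10 of them also by the lower bound, against 48.8% of all genes, and the median of the list was 14.3 FPKM. The highest was Pvr, the PDGF/VEGF receptor of blood cells, at 181 FPKM (bounds 142 and 220.4), followed by Glt (glutactin) at 138 FPKM, the CD36-family receptor crq (croquemort) at 117 FPKM, Dscam at 115 FPKM and Pxn (peroxidasin) at 93.3 FPKM. The bounds of these neighbours overlapped. Phagocytic receptors ranged widely. NimC4 was at 56.8 FPKM (bounds 44.2 and 69.5), Sr-CI at 34.8 FPKM (bounds 27.1 and 42.5), drpr (Draper) at 20.4 FPKM (bounds 15.8 and 24.9) and eater at 8.20 FPKM (bounds 6.21 and 10.2), with no overlap between these neighbours. He (Hemese), a marker of all larval hemocytes, was at 4.11 FPKM (bounds 1.80 and 6.43). The markers most used for larval plasmatocytes were the lowest of the list: Hml (hemolectin) at 0.104 FPKM (bounds 0.0468 and 0.161) and nimC1, which encodes the P1 antigen, at 0.0918 FPKM (bounds 0 and 0.219), with Sr-CII at 0.0990 FPKM. Of the markers read to check the S2 label, Serpent and most plasmatocyte receptors were thus at or above 1 FPKM and Hml and nimC1 were not.

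Where 48.8% of all genes were at or above 1 FPKM, crystal cell genes were in 1 of 5 cases (20%). This was PO45, the prophenoloxidase PPO2, at 4.32 FPKM (bounds 3.08 and 5.56), while proPO-A1, another prophenoloxidase, was listed at 0 in a locus shared by 6 genes. The low crystal cell regulators lz and peb stand in this list too, and klu was at 0.0164 FPKM with a lower bound of 0. Of the 6 lamellocyte genes 5 (83.3%) were at or above 1 FPKM, 4 of them also by the lower bound, against 48.8% of all genes. This share was like that of the plasmatocyte genes, and 2 of the 5 share a locus with another gene. The filamin cher was at 151 FPKM and the kinase msn at 110 FPKM (bounds 86.0 and 134), both of which serve other cells too. Those tied more closely to lamellocytes were lower, with mthl4 at 19.7 FPKM, CG42640 (PPO3, the lamellocyte prophenoloxidase) at 19.1 FPKM (bounds 14.7 and 23.5) and the integrin subunit alphaPS4 at 2.81 FPKM (bounds 0.534 and 5.09). The lamellocyte surface antigen atilla was listed at 0.

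**Figure D3:**
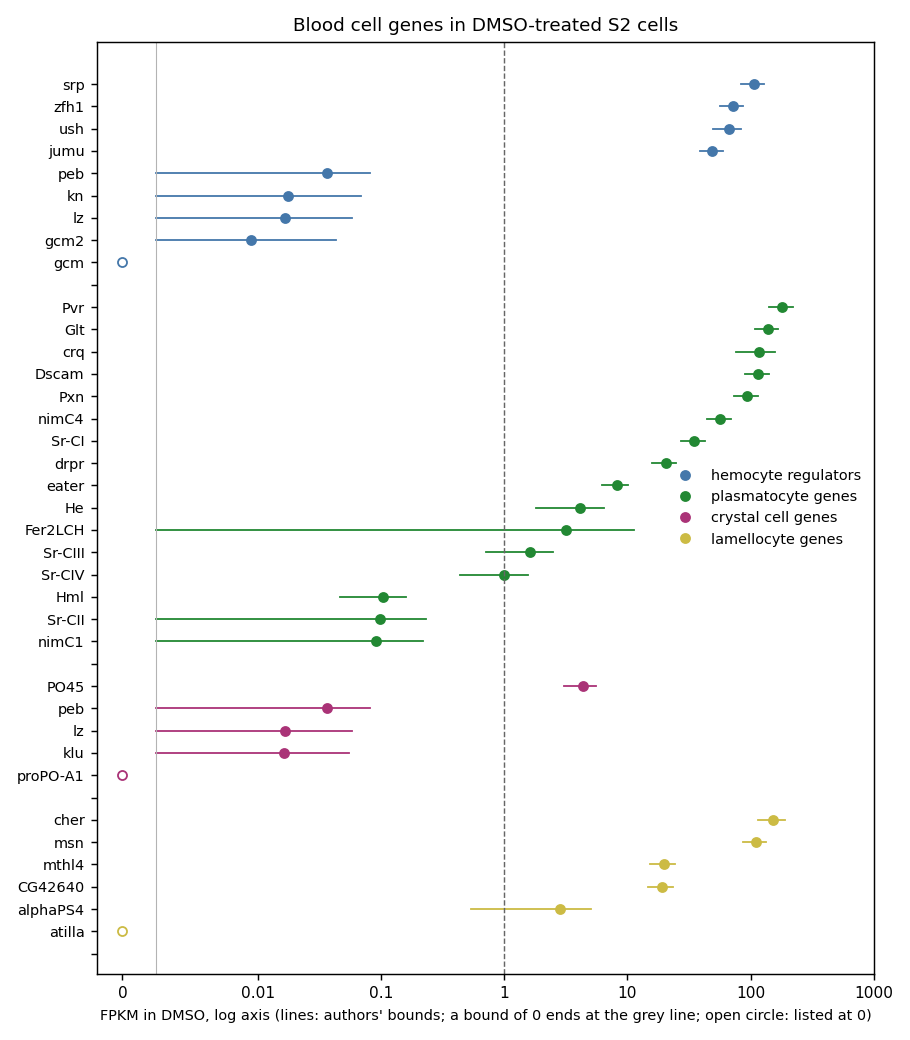
FPKM in DMSO of hemocyte regulators and of plasmatocyte, crystal cell and lamellocyte genes on a log axis, with the authors' bounds as lines and genes listed at 0 as open circles on the left. Filled points to the right of the dashed line are at or above 1 FPKM. This holds for 4 of 9 regulators, 13 of 16 plasmatocyte, 1 of 5 crystal cell and 5 of 6 lamellocyte genes, against 48.8% of all genes. The genes peb and lz stand in 2 lists.

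The products of blood cells were also uneven. Of 12 basement membrane and matrix genes, 11 were at or above 1 FPKM at a median of 76.2 FPKM. BM-40-SPARC, a collagen-binding glycoprotein, was at 1329.6 FPKM (bounds 1034 and 1625) and the laminin chains LanA, LanB1 and LanB2 at 257, 186 and 124 FPKM. The collagen IV chains were far lower, with Cg25C at 7.14 FPKM (bounds 5.48 and 8.80) and vkg at 3.24 FPKM (bounds 2.43 and 4.05). The basement membrane protein Ndg (nidogen) was at 0.0219 FPKM with a lower bound of 0. Of 14 antimicrobial peptide genes 6 (42.9%) were at or above 1 FPKM, near the 48.8% of all genes, and the count was 3 by the lower bound, 3 at 5 FPKM and 12 at 0.1 FPKM. Of these genes CecA1 (cecropin A1) alone passed 10 FPKM, at 42.5 FPKM (bounds 29.1 and 55.9). Mtk (metchnikowin) followed at 8.43 FPKM (bounds 1.71 and 15.2) and Drs (drosomycin) at 3.71 FPKM (bounds 0.9995 and 6.42), and Def (defensin) was listed at 0. The others under 1 FPKM were CecC, CecA2, DptB, Dro, AttA, Dpt and AttC, from 0.0172 to 0.526 FPKM. Among thioester and clotting proteins, TepIV at 57.2 FPKM, TepII at 33.8 FPKM and Mcr at 9.18 FPKM were at or above 1 FPKM, and 5 others were not, among them the transglutaminase Tg at 0.888 FPKM, fon at 0.0908 FPKM, TepI and TepIII.

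In signalling, the transducers were nearly all at or above 1 FPKM, while the share of secreted ligands was near that of all genes. Over the 7 lists of Wnt, Hedgehog, Smad, Ras and MAP kinase, JAK/STAT, insulin and TOR, and Notch transducers, which hold a few membrane proteins such as the receptors dome and InR, 54 of 56 genes (96.4%) were at or above 1 FPKM, with a median of 29.2 FPKM. Over the 5 lists of Wnt, BMP and activin, receptor tyrosine kinase, JAK/STAT and insulin-like ligands, 15 of 35 genes (42.9%) were, with a median of 0.219 FPKM. The same over all genes was 48.8% and 0.753 FPKM. Of the genes listed for the innate immune pathways, 8 of 8 for Toll and 10 of 10 for Imd were at or above 1 FPKM. Among them were key (Kenny, a subunit of the IKK kinase) at 157 FPKM, the NF-kappaB factor Rel at 136 FPKM, the Toll ligand spz at 92.1 FPKM and PGRP-LC, the receptor that binds bacterial peptidoglycan, at 30.3 FPKM.

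Each pathway had its own gaps. In Notch signalling the receptor N was at 17.8 FPKM (bounds 14.0 and 21.6) and its ligand Ser at 2.50 FPKM (bounds 1.83 and 3.16), and the ligand Dl was at 0.00475 FPKM (bounds 0 and 0.0291). Su(H), the DNA-binding factor of the pathway, was at 7.43 FPKM (bounds 5.58 and 9.28), and fng (Fringe, which glycosylates the receptor) at 0.794 FPKM (bounds 0.316 and 1.27). The only 1 of 7 Wnt ligands at or above 1 FPKM was Wnt5, at 16.9 FPKM (bounds 13.1 and 20.6), and wg, Wnt4, Wnt10 and wntD were listed at 0. The 9 Wnt transducers ranged from 10.1 to 215 FPKM, led by arm (beta-catenin), and of 4 Wnt receptors fz3 alone was under 1 FPKM, at 0.0529 FPKM. The ligand hh was at 0.116 FPKM and ci, the transcription factor that ends the Hedgehog pathway, at 0.0796 FPKM, both with a lower bound of 0. The receptors ptc at 22.9 FPKM (bounds 18.0 and 27.9) and smo at 12.2 FPKM (bounds 9.07 and 15.3) stood well above them.

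Of the BMP and activin ligands, gbb was at 54.8 FPKM (bounds 42.8 and 66.7), daw at 10.7 FPKM and mav at 4.41 FPKM, and dpp at 0.219 FPKM (bounds 0.0672 and 0.371). The ligands scw at 0.0632 FPKM and Actbeta at 0.0346 FPKM had a lower bound of 0. The receptors babo and put were at 56.4 and 55.5 FPKM, with overlapping bounds, and wit at 0.0390 FPKM. In JAK/STAT signalling upd3 was at 6.63 FPKM (bounds 4.86 and 8.39) and upd2 at 2.87 FPKM (bounds 1.89 and 3.85), the ligand os (Unpaired 1) at 0.0160 FPKM, and the receptor dome at 41.5 FPKM and Stat92E at 137 FPKM. Against 48.8% of all genes, the JNK list had 9 of 10 genes (90%) at or above 1 FPKM. It held the TNF ligand egr at 74.9 FPKM and the receptor wgn at 22.4 FPKM, with the other receptor, CG10176 (Grindelwald), at 0.00759 FPKM. The Fos factor kay, at 289 FPKM (bounds 226 and 352), was its highest gene.

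Receptor tyrosine kinases held 3 of 8 genes (37.5%) at or above 1 FPKM, not far from the 48.8% of all genes. Pvr at 181 FPKM and InR, the insulin receptor, at 23.1 FPKM (bounds 18.1 and 28.1) were followed by Alk at 1.83 FPKM (bounds 1.36 and 2.30). The other 5 of 8 were under 0.1 FPKM: Egfr at 0.0744 FPKM, tor at 0.0573 FPKM, the FGF receptor btl at 0.0372 FPKM, sev at 0.0225 FPKM, and the FGF receptor htl, listed at 0. Several ligands of these low receptors were at or above 1 FPKM, and others were not. The EGF ligand spi was at 196 FPKM (bounds 154 and 237), grk at 25.0 FPKM and the FGF ligand pyr at 27.8 FPKM (bounds 21.8 and 33.9), while the EGF ligand vn was at 0.895 FPKM (bounds 0.584 and 1.21) and the FGF ligand ths at 0.130 FPKM (bounds 0.0234 and 0.236). Of the ligands of Pvr, Pvf2 was at 25.3 FPKM (bounds 19.6 and 31.0), Pvf3 at 5.33 FPKM (bounds 3.87 and 6.79) and Pvf1 at 0.230 FPKM. All 8 genes of the Ras and MAP kinase list were at or above 1 FPKM, with pnt, the Ets factor, at 293 FPKM.

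Among insulin-like peptides, Ilp6, known as a peptide of the fat body, was at 133 FPKM (bounds 96.5 and 169), in a locus shared by 6 genes, and the other 7 were under 1 FPKM. Of these, Ilp8 was at 0.217 FPKM, Ilp2 at 0.0771 FPKM and Ilp5 at 0.0435 FPKM, all with a lower bound of 0, and Ilp1, Ilp3, Ilp4 and Ilp7 were listed at 0. All 14 insulin and TOR transducers were at or above 1 FPKM, from raptor at 13.4 FPKM to Rheb at 101 FPKM. In the Hippo pathway yki, the coactivator, was at 103 FPKM (bounds 81.1 and 125) and its DNA-binding partner sd at 53.9 FPKM. The protocadherins ft at 0.0823 FPKM and ds at 0.00886 FPKM, which act upstream at the membrane, were its only members under 1 FPKM. Without added 20E, EcR, the ecdysone receptor, was at 14.3 FPKM (bounds 11.1 and 17.5) and its partner usp at 35.0 FPKM (bounds 23.9 and 46.1). Of the 12 genes on that list 10 were at or above 1 FPKM. Eip75B was highest at 52.8 FPKM (bounds 41.2 and 64.3), and the nuclear receptors Hr4 at 0.138 FPKM and Hr46 at 0.0834 FPKM were lowest.

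**Figure D4:**
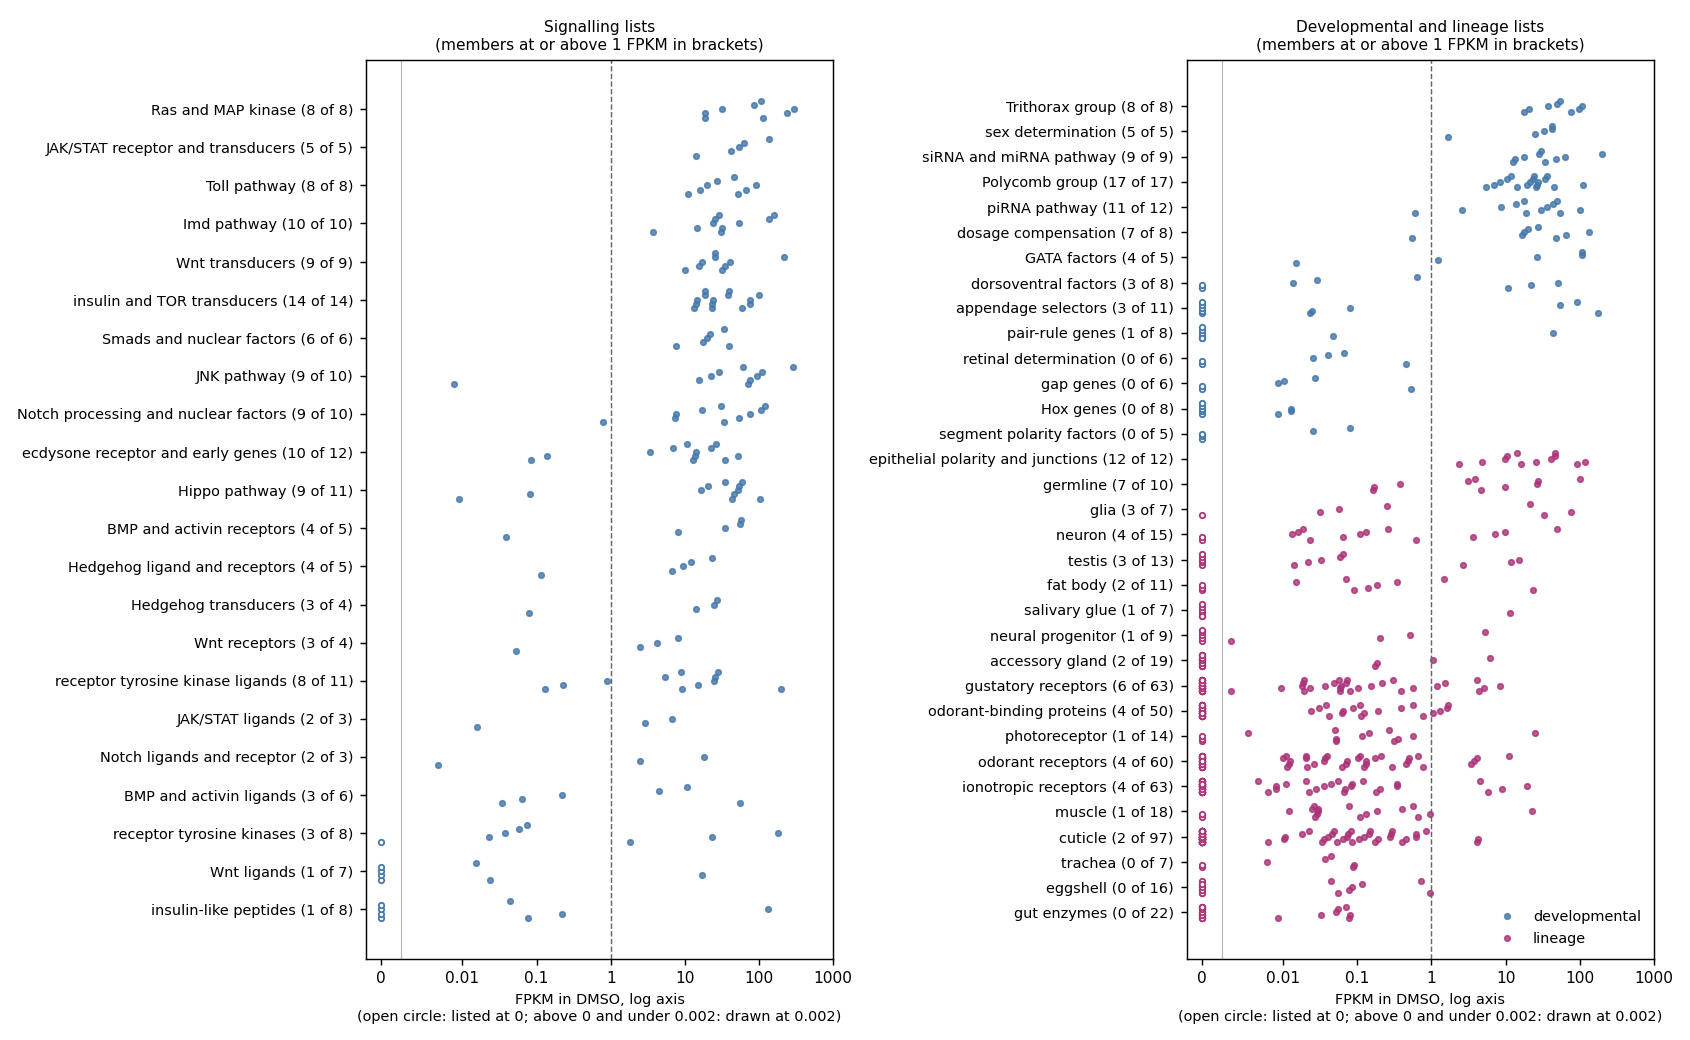
FPKM in DMSO of each member of the signalling lists (left) and of the developmental (blue) and lineage (purple) lists (right), on log axes with genes listed at 0 as open circles. The dashed line is 1 FPKM, and the counts in brackets run from all members (8 of 8 for Ras and MAP kinase) to none (0 of 8 Hox genes).

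The lists of developmental regulators differed in level. Of 27 genes that pattern the embryo (gap, pair-rule, segment polarity and Hox genes), 1 (3.70%) was at or above 1 FPKM and 16 (59.3%) were listed at 0. Over all genes these shares were 48.8% and 28.7%. The 1 patterning gene at or above 1 FPKM was h (hairy), at 44.2 FPKM (bounds 34.6 and 53.8). Among Hox genes, abd-A, Scr and Ubx lay at or under 0.0128 FPKM, and Abd-B, Dfd, lab, pb and Antp were listed at 0. The highest gap gene was gt at 0.532 FPKM (bounds 0.178 and 0.886), hkb, Kr and hb lay between 0.00857 and 0.0265 FPKM, and kni and tll were listed at 0. Among pair-rule genes run was at 0.0477 FPKM, and eve, ftz, odd, opa, prd and slp1 were listed at 0, as were the segment polarity factors en, inv and slp2. Of 8 dorsoventral factors 3 (37.5%) were at or above 1 FPKM, and all 3 share a locus with other genes. They were dl (Dorsal, an NF-kappaB factor) at 51.3 FPKM (bounds 36.2 and 66.3), brk at 21.9 FPKM (bounds 11.5 and 32.3) and rho at 10.9 FPKM (bounds 4.22 and 17.5). Among the 5 under 1 FPKM were twi, the mesoderm regulator, at 0.0287 FPKM and sna, listed at 0. Of the chromatin groups that keep the state of such genes, all 17 listed Polycomb and all 8 listed Trithorax genes were at or above 1 FPKM. The Polycomb genes ranged from ph-d at 5.51 FPKM to Caf1 at 109 FPKM, and the Trithorax genes from ash1 at 17.7 FPKM to mor at 107 FPKM.

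A few selector genes stood at high levels. The GATA factor pnr (Pannier), known from heart and notum, was at 108 FPKM (bounds 85.0 and 131), not separable by its bounds from srp. The third GATA factor in order was GATAd at 26.6 FPKM (bounds 20.8 and 32.5), and grn was at 0.0148 FPKM. Of 11 appendage selectors, 3 (27.3%) were at or above 1 FPKM, against 48.8% of all genes. The LIM-homeodomain factor ap (Apterous), the dorsal selector of the wing, was highest at 178 FPKM (bounds 139 and 217), followed by the Hox cofactor exd at 92.2 FPKM (bounds 72.8 and 112) and by sd. The partner of exd, hth, was at 0.0800 FPKM, and Dll, bi, Doc1, Doc2 and nub were listed at 0. None of 6 retinal determination genes reached 1 FPKM, and the highest was ey, the Pax6 factor of the eye, at 0.449 FPKM (bounds 0.199 and 0.699), with toy, eya and dac lower and eyg and so listed at 0.

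Genes of sex determination and of small RNA pathways were mostly at or above 1 FPKM, where 48.8% of all genes were. Sxl, the master switch of sex determination, was at 33.2 FPKM (bounds 25.5 and 40.9) and fru at 42.6 FPKM (bounds 32.8 and 52.4), while dsx was at 1.67 FPKM with a lower bound of 0 and shares its locus with lds at 66.6 FPKM. FPKM per gene does not tell the spliced forms of these genes apart. In the male dosage compensation complex, msl-2, the subunit that females repress, was at 16.7 FPKM (bounds 12.9 and 20.4), and the noncoding RNAs roX2 and roX1 at 135 FPKM (bounds 102 and 168) and 0.549 FPKM (bounds 0.292 and 0.807). All 9 genes of the siRNA and miRNA pathways were at or above 1 FPKM, led by AGO2 at 198 FPKM (bounds 151 and 244). Of 12 piRNA genes 11 were at or above 1 FPKM. The PIWI-family genes aub at 101 FPKM (bounds 79.8 and 122) and AGO3 at 49.1 FPKM (bounds 38.5 and 59.6) did not overlap, and the third, piwi, was at 2.62 FPKM with bounds 0 and 5.61 in a locus with SCAR, listed at 66.9 FPKM. The factor tj, which drives piwi in ovarian somatic cells, was at 0.592 FPKM.

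Of the 513 genes on lists for other lineages, 57 (11.1%) were at or above 1 FPKM and 267 (52.0%) were listed at 0, against 48.8% and 28.7% of all genes. None of 22 gut enzymes, 16 eggshell genes and 7 tracheal genes was at or above 1 FPKM. The nearest were the chorion genes Cp18 at 0.942 FPKM (bounds 0.0574 and 1.83) and Cp15 at 0.731 FPKM (bounds 0 and 1.60), and the tracheal regulator trh was at 0.0867 FPKM. Of 97 cuticle genes 2 were at or above 1 FPKM, Cpr67Fb at 4.20 FPKM (bounds 1.72 and 6.68) and Cpr50Cb at 4.12 FPKM (bounds 2.45 and 5.80). Muscle genes were at or above 1 FPKM in 1 of 18 cases, which was the transcription factor Mef2, at 22.6 FPKM (bounds 17.6 and 27.6). The myosin heavy chain Mhc was at 0.0296 FPKM, Mlc2 at 0.657 FPKM and the cardiac factor tin at 0.0247 FPKM. Of 11 fat body genes, the lipid transfer protein CG15828 (Apoltp) was at 23.5 FPKM (bounds 18.5 and 28.5) and Lsp1gamma at 1.49 FPKM (bounds 0.926 and 2.05), and the lipophorin gene Rfabg was at 0.0715 FPKM. The yolk protein genes Yp1, Yp2 and Yp3 lay between 0.140 and 0.338 FPKM, and Fbp2, Lsp1alpha and Lsp2 were listed at 0.

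Over all genes 48.8% were at or above 1 FPKM, and of 15 neuronal genes 4 (26.7%) were. These 4 were the syntaxin Syx1A at 48.7 FPKM, the calcium channel cac at 9.75 FPKM, Rab3 at 7.15 FPKM and the RNA-binding protein elav at 3.63 FPKM (bounds 2.05 and 5.22). Their synaptic partners n-syb at 0.259 FPKM, Syt1 at 0.132 FPKM and brp at 0.0646 FPKM were not, and Snap25 and VGlut, the vesicular glutamate transporter, were listed at 0. Of 9 neural progenitor genes 1 (11.1%) was at or above 1 FPKM. This was insc, which orients asymmetric division, at 5.33 FPKM (bounds 2.42 and 8.23). The gene mira was at 0.511 FPKM and dpn at 0.203 FPKM, and the proneural genes ac, sc, l(1)sc and ase were listed at 0. Of 7 glia genes 3 (42.9%), near the 48.8% of all genes, were at or above 1 FPKM. They were loco at 76.6 FPKM, nrv2 at 33.1 FPKM and moody at 21.6 FPKM. Under 1 FPKM were Eaat1 at 0.253 FPKM and wrapper at 0.0314 FPKM, and gcm was listed at 0. The glial homeodomain factor repo was at 0.0560 FPKM with a lower bound of 0. Of 14 photoreceptor genes 1 (7.14%) was at or above 1 FPKM. This was norpA, the phospholipase C of phototransduction, at 24.8 FPKM (bounds 19.4 and 30.3). The main rhodopsin ninaE was at 0.0516 FPKM. The channel gene trp, Arr1 and Rh6 were listed at 0. All 12 epithelial polarity and junction genes were at or above 1 FPKM, against 48.8% of all genes. They ranged from the E-cadherin shg at 2.35 FPKM (bounds 1.71 and 2.99) to cora at 118 FPKM (bounds 92.3 and 143).

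Against 48.8% of all genes, germline genes were at or above 1 FPKM in 7 of 10 cases (70%). Besides aub these included the germ cell differentiation factors bam at 26.4 FPKM (bounds 20.5 and 32.4) and bgcn at 27.5 FPKM (bounds 21.3 and 33.7), whose bounds overlapped and which each share a locus with another gene. The germ cell helicase vas was at 0.169 FPKM, nos at 0.381 FPKM, both with a lower bound of 0, and orb at 0.162 FPKM. Of 13 testis genes, mia at 15.1 FPKM (bounds 11.6 and 18.6) and topi at 11.9 FPKM (bounds 9.06 and 14.7), both alone in their loci, were highest. The third at or above 1 FPKM, tomb at 2.64 FPKM, had a lower bound of 0, and aly and comr, of the same family of meiotic arrest genes, were listed at 0. The salivary glue gene Sgs1 was at 11.4 FPKM (bounds 8.83 and 14.0), and the other 6 glue genes were listed at 0.

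Few chemosensory receptors were at or above 1 FPKM. Of 186 odorant, gustatory and ionotropic receptor genes, 14 (7.53%) were at or above 1 FPKM, against 48.8% of all genes. Of these 14, 9 share a locus with another gene, as do 50.3% of all genes from 1 to 10 FPKM. A lower bound of at least 1 FPKM was given for 7 of the 14. The highest, Ir76a at 19.6 FPKM, had bounds 0 and 45.5 and lies in a locus with HLH106 at 245 FPKM. Or43b at 11.0 FPKM had bounds 0 and 26.0 and lies in a locus with lin19 at 141 FPKM. Gr61a, a receptor of the sugar-receptor family, was alone in its locus at 8.47 FPKM (bounds 6.17 and 10.8), as were Gr10a at 4.16 FPKM (bounds 2.70 and 5.62) and Or10a at 3.80 FPKM (bounds 2.42 and 5.17).

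The shares of core promoter motifs differed between the classes of level. In 14827 promoters, read from BDGP6 at the annotated start of each gene's most abundant listed transcript, 4 motifs were counted on the strand of the gene. They were the TATA box TATAAA with its first base 45 to 15 bases before the start, the initiator TCAGT within 10 bases of the start, the DRE TATCGATA (the same on both strands, the site bound by DREF at housekeeping genes) within 150 bases before the start, and TCT as CTTTTT or CTTTTC within 10 bases of the start. No motif's letters contain those of another. The DRE stood in 0.639% of promoters of genes listed at 0 and in 22.7% of those at or above 1000 FPKM, and its share was higher in each class from 0.1 FPKM up than in the class below. The TATA box stood in 14.1% of promoters of genes listed at 0 and in 15.2% from 0.1 to 1 FPKM, against 3.03% from 10 to 100 FPKM. The initiator stood in 11.5% of promoters of genes listed at 0, in 22.2% above 0 to 0.1 FPKM and in 1.68% at or above 1000 FPKM. Over all promoters the shares were 9.00% for the TATA box, 12.8% for the initiator, 6.54% for the DRE and 2.45% for TCT. Genes of all biotypes were read together. The genes listed at 0 include 308 tRNA, 257 snoRNA, 100 rRNA and 31 snRNA genes, so the kinds of genes differed between the classes. The part of gene kind in these shares was not tested.

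TCT was near its overall share in every class up to 1000 FPKM (1.38% to 3.40%) and stood in 34.5% of the 119 promoters of genes at or above 1000 FPKM. Of these, the 77 ribosomal protein genes, taken by the symbols RpL, RpS and RpLP, had it in 46.8% of cases and the 42 others in 11.9%. Mitochondrial ribosomal protein genes had it in 1.37% of 73 cases, and the DRE in 19.2%. These shares are descriptions of letters at annotated starts. RpL35 has a TCT run 3 bases after its annotated start, while RpL5, RpL27 and RpL28 show the shorter core in the stretches printed above. Those of RpL5 and RpL27 end before the longer letters could be complete, so they do not show whether these 2 genes have the longer TCT.

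**Figure D5:**
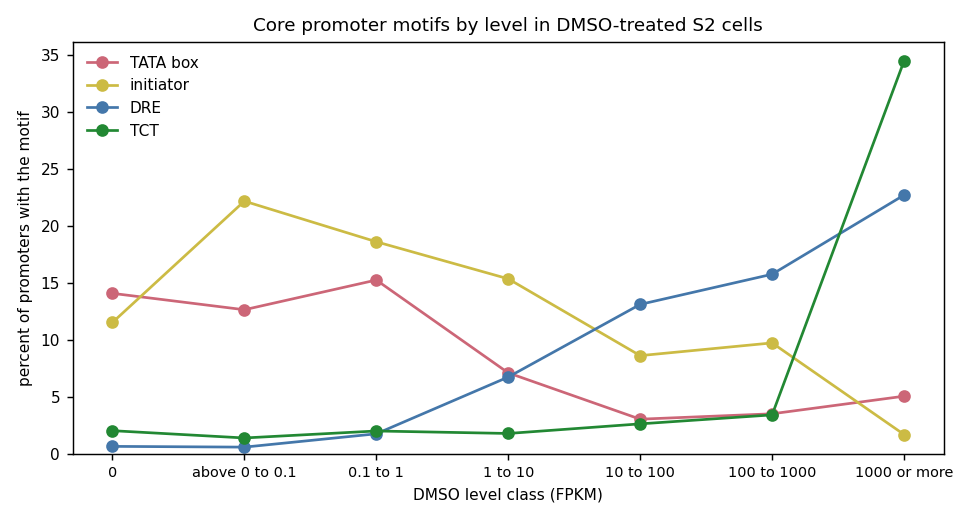
Percent of promoters with a TATA box, an initiator, a DRE or a TCT element at the annotated start, by class of DMSO level in FPKM. Genes of all biotypes are included. The DRE goes from 0.639% at a listed 0 to 22.7% at or above 1000 FPKM, and TCT is at 34.5% in the highest class alone.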

How the data were processed

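The RNA-Seq table of S2 cells gives, per the file headers, gene FPKM with confidence bounds and a status for the DMSO and the 20E condition, in the layout of Cuffdiff. The authors deposited 1 pooled FPKM per condition, and the level of the bounds is not named. The submitters' processing notes list bcl2fastq 2.17.1.14, Bowtie2 2.3.4.2, TopHat2 and deepTools 3.0.2 and the builds dm3 and dm6, without roles. Arm names such as 2RHet in the table are those of the older release, so its coordinates were not combined with BDGP6 (dm6), and genes were matched by FlyBase identifier (14920 of 15596). The transcript table also holds the authors' fold changes, p-values and q-values between conditions, which were not used. No test was made, since a pooled value has no replicates.

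Genes of status OK were counted at or above 1 FPKM, and 77 lists of 1369 genes were described by counts and medians. The members and lists were chosen with earlier results of these data known. The eggshell list was corrected after it had caught Cp1, Cp110 and Cp190, and 1 listed symbol was not matched. Named genes were the 25 highest, and from each list the highest, the defining members and, in lists of up to 20, members under 1 FPKM, of which not every one is named. The rest are given by counts and range. Genes sharing a locus with a named member, Ef1alpha48D and the highest genes outside the ribosome were chosen after their values were seen. Promoter letters were read from BDGP6. The search for whole fragments was tested on simulated data. Alternatives were other limits on FPKM, the lower bound, genes alone in their locus, a common sum, summed transcripts, other pseudocounts and other promoter windows. The tools were pandas 2.3.3 and NumPy 2.4.6 under Python 3.11.15, with figures by Matplotlib 3.10.9.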

Additional observations from a re-analysis of the deposited data

How the results depend on the processing

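No paired analysis was possible because the column carries no replicates, and for the same reason leaving out each library was not run. The 7616 genes at or above 1 FPKM became 9299 at 0.1 FPKM, 6646 at 5 FPKM, 6944 by the authors' lower bound and 7709 after rescaling to a common sum, and 4070 when only genes alone in their locus were counted, since fewer genes enter. By the same restriction the 651 list members at or above 1 FPKM became 357. The share of the 25 highest genes went from 22.8% to 12.2% without cytosolic ribosomal protein genes. TCT in the highest class went from 34.5% to 63.0% when all 300 bases were searched, against 32.4% of all promoters, and to 62.2% with CTTT at the start, against 11.5%, a reading chosen after seeing the data. A limit of 0.01 FPKM in place of 0 gave 4699 genes in place of 4473. Counts of 37 of the 77 lists moved over 1.5 times with genes alone in their locus, of 19 at 0.1 FPKM and of 12 at 5 FPKM. Medians of 27 of the 77 lists moved over 1.5 times when members listed at 0 were left out. By the fitted scale, levels under about 0.02 FPKM rest on 3 or fewer fragments of a transcript of 2000 bases.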
